A study of Homo sapiens with 4 samples.

Results

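The genes described here are 10 enzymes that make, activate or remove androgens: CYP17A1, HSD3B1, HSD17B3, AKR1C3, SRD5A1, SRD5A2, SRD5A3, HSD17B6, HSD17B4 and SULT2B1. They were picked by name out of 20162 protein-coding genes, and all ChIP-seq peaks touching the annotated gene or its flanks of 50 kb were taken. This gave 44 of the 60752 H3K27Ac peaks found with DHT, 47 of the 57623 H3K27Ac peaks found with vehicle and 17 of the 20955 TCF7L2 peaks. The cells were LNCaP, an androgen-sensitive human prostate cancer line from a lymph node metastasis, whose androgen receptor carries a mutation that lets other steroids activate it. For H3K27Ac they were grown at passage 20 in charcoal-stripped serum, which is depleted of steroids, and given either 10 nM DHT (dihydrotestosterone, the most potent natural androgen) for 4 h or ethanol vehicle. For TCF7L2 they were at passage 15 in serum that had not been stripped, with no DHT added. With 1 library per condition, variation between cultures was not measured and no test was made, and differences are given with counting error alone.

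Androgens are made from cholesterol in a chain of steps. CYP17A1 forms the precursor DHEA in the adrenal gland and testis, HSD3B1 turns DHEA into androstenedione, and HSD17B3 in the testis or AKR1C3 in peripheral tissue reduces androstenedione to testosterone. The SRD5A enzymes reduce testosterone to DHT, and HSD17B6 can form DHT back from androstanediol, while other hydroxysteroid dehydrogenases and sulfotransferases withdraw active steroids or their precursors. Prostate tumours that grow under androgen deprivation can use these steps to supply their own androgen receptor, the factor that binds DHT and then DNA. H3K27Ac, the acetylation of lysine 27 on histone H3, marks active enhancers and promoters. TCF7L2 is the DNA-binding partner of β-catenin in the Wnt pathway.

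The height of a peak is the number of tags piled up at its highest point, as the authors' peak caller gave it. It ranged over 10 to 213 tags with DHT (median 23), 9 to 212 tags with vehicle (median 22) and 15 to 229 tags for TCF7L2 (median 31). Read totals are unknown, and whether heights were scaled to them is not given in the sources used here. Over 49555 pairs of H3K27Ac peaks, 1 from each condition and each sharing the most bases with the other, the median ratio of DHT to vehicle height was 1.07. Near KLK3 and FKBP5, known androgen-induced genes, the tallest peak was at least 1.5-fold higher with DHT, with heights of 180 tags under DHT against 97 under vehicle at KLK3 and 134 tags under DHT against 73 under vehicle at FKBP5. TMPRSS2, also androgen-induced, stayed within 1.5-fold with 125 tags under DHT against 106 under vehicle. The housekeeping genes GAPDH (99 tags with DHT, 106 with vehicle) and ACTB (87 with DHT, 78 with vehicle) stayed within 1.5-fold. A promoter peak was present at 9 of 9 luminal prostate genes with DHT and 8 of 9 with vehicle, against 1 of 4 basal, 2 of 4 stromal, 0 of 3 leukocyte, 1 of 4 liver and 1 of 5 adrenal or testicular steroidogenic genes in either condition.

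Around the enzymes, 7 of 39 paired peaks (17.9%) were at least 1.5-fold higher with DHT, against 14.6% of all pairs of the genome. They lay away from promoters, mainly inside HSD17B6, HSD17B4 and SULT2B1. The share of such pairs inside genes over the whole genome was not counted. Over the whole genome such pairs were also less common at promoters, with 6.97% of promoter pairs and 16.7% of other pairs. Apart from CYP17A1, the tallest peak of each enzyme stayed within 1.5-fold. It was higher with DHT in 7 enzymes, equal in AKR1C3 and lower in SRD5A2 and SRD5A3, with a median ratio of 1.10 against 1.09 over all genes. CYP17A1 was thus the 1 enzyme of 10 that passed this limit upward, where 8.68% of the 18037 genes with a peak in both conditions did so, and 0 of 10 passed downward, where 1.95% did.

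**Figure D1:**
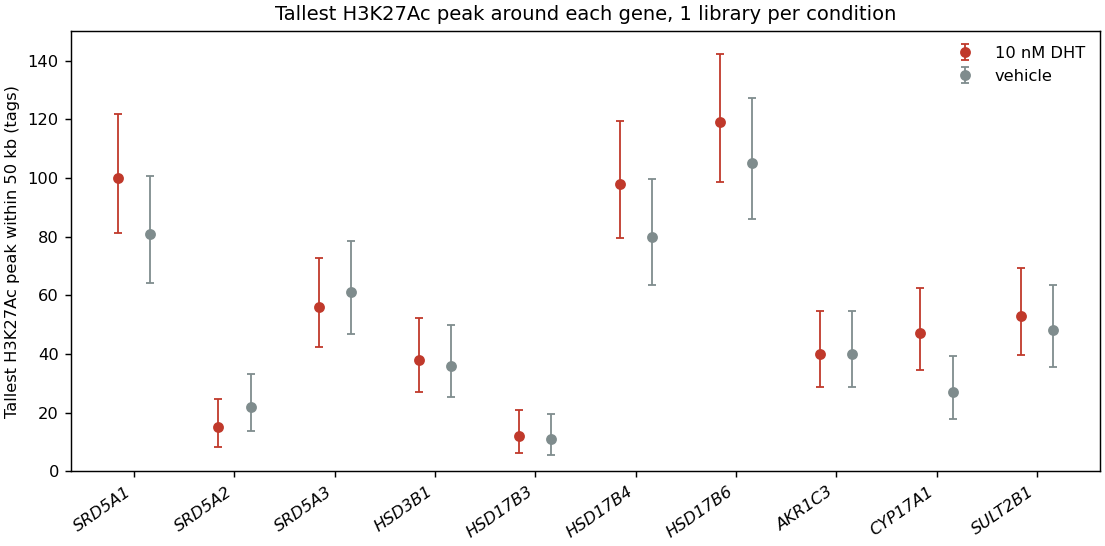
Tallest H3K27Ac peak, in tags, within 50 kb of each enzyme, with 10 nM DHT (red, left) and vehicle (grey, right) from 1 library each, and exact 95% Poisson intervals for counting error. CYP17A1 had 47 tags with DHT against 27 with vehicle, and heights ranged between 12 tags at HSD17B3 and 119 tags at HSD17B6 with DHT. For SRD5A1 and SRD5A2 the tallest peaks with DHT and with vehicle lay at different places.

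The tallest peak near an enzyme was often not its own. It lay over the promoter of NACA for HSD17B6, of TMEM165 for SRD5A3 and of DBP for SULT2B1, and inside the neighbouring genes WBP1L for CYP17A1 and SLC35D2 for HSD17B3. For SRD5A1 it lay over its own promoter with DHT (100 tags) but over that of TENT4A with vehicle (81 tags). The median tallest height of the 10 enzymes was 50 tags with DHT and 44 with vehicle, and the median over all protein-coding genes, counting 0 where no peak lay within 50 kb, was 62 tags with DHT and 55 with vehicle. An H3K27Ac peak covered an annotated promoter, taken from 1000 bp upstream to 100 bp downstream of a start, in 5 of 10 enzymes in both conditions, against 55.5% of all genes with DHT and 54.3% with vehicle. Only SRD5A1, SRD5A3 and HSD17B4 had it over the start of their canonical transcript, while HSD17B6 and SULT2B1 had it over another annotated start. No promoter peak was found for CYP17A1, HSD3B1, HSD17B3, AKR1C3 or SRD5A2 in either condition.

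Peak by peak, 39 pairs overlapped between the conditions. Of these, 7 (17.9%) were at least 1.5-fold higher with DHT, against 14.6% of all pairs of the genome, and 2 (5.13%) were at least 1.5-fold lower, against 6.75%. These shares are near those of the genome. None of the 13 pairs over a promoter, own or another gene's, passed the limit upward, and 7 of the 26 other pairs (26.9%) did. Over the whole genome the same split was 6.97% of 10536 promoter pairs and 16.7% of 39019 other pairs. The 18 pairs inside the enzymes' own genes held 6 of the 7 higher pairs and both lower ones, with a median ratio of 1.23. The share of higher pairs inside genes over the whole genome was not counted, so these counts have no genome value beside them. The 5 pairs over their own promoters had ratios of 1 to 1.28.

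**Figure D2:**
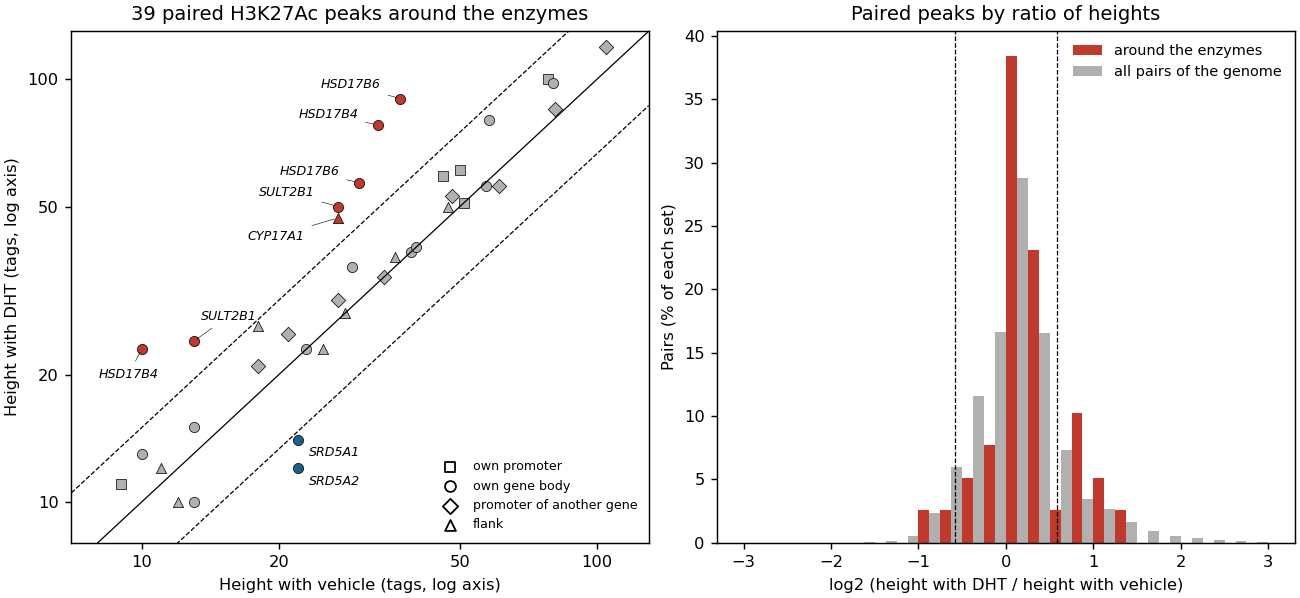
Left, height with DHT against height with vehicle in tags (log axes) for the 39 paired peaks, by position, with lines for equal heights (solid) and 1.5-fold (dashed); red pairs were higher with DHT and blue ones lower. Right, the share of pairs in each interval of log2 ratio, around the enzymes (red) and over all 49555 pairs (grey), with the 1.5-fold limits dashed; 7 of 39 pairs lie above the upper limit and 2 below the lower one.

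Peaks without any overlap in the other condition were few and low. With DHT there were 5 of 44 (11.4%, against 17.1% of all DHT peaks), of 10 to 23 tags, 3 of them at HSD17B4 and 2 at SULT2B1. With vehicle there were 8 of 47 (17.0%, against 11.8% of all vehicle peaks), of 9 to 15 tags, 4 of them at SRD5A3 and 1 each at SRD5A2, HSD17B6, CYP17A1 and SULT2B1. Except for the 23-tag peak in intron 1 of SULT2B1, they had at most 15 tags, near the lowest heights listed, which were 10 tags with DHT and 9 with vehicle.

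**Figure D3:**
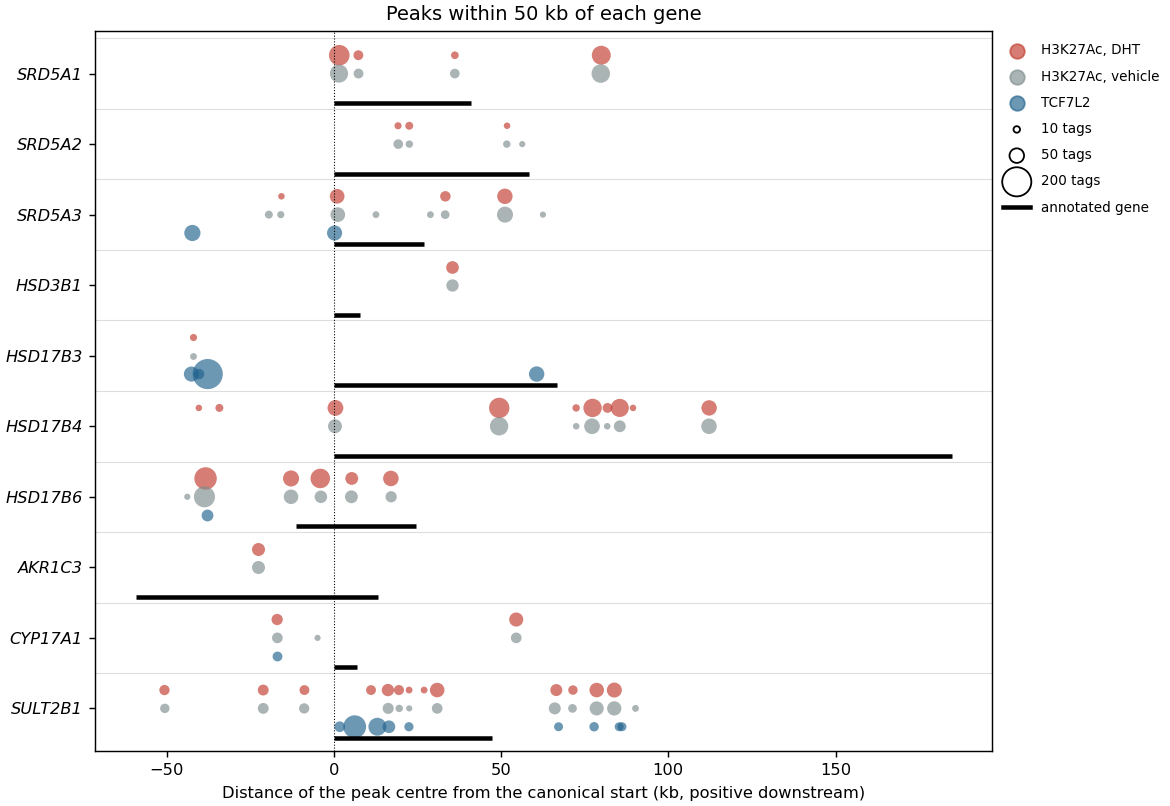
Position of every peak within 50 kb of each enzyme as the distance of its centre from the canonical start in kb, positive in the direction of transcription, for H3K27Ac with DHT (red, top), H3K27Ac with vehicle (grey, middle) and TCF7L2 (blue, bottom); the area of a point grows with height and black bars are the annotated genes. HSD17B4 and SULT2B1 had the most H3K27Ac peaks with DHT, 10 and 13, and HSD3B1, HSD17B3 and AKR1C3 had 1 each.

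Of the enzymes of the first steps, CYP17A1 (chr10:104590288-104597229, minus strand) had no peak over the gene itself. Its tallest peak had 47 tags with DHT (95% Poisson interval 34.5 to 62.5) and 27 with vehicle (17.8 to 39.3), a ratio of 1.74 (1.06 to 2.91). That peak, at chr10:104541360-104543909, lay inside WBP1L, 54.5 kb downstream of the CYP17A1 start. The other pair lay over the shared promoter of BORCS7 and BORCS7-ASMT, with 30 tags with DHT and 27 with vehicle, and a peak of 9 tags 4.85 kb upstream of CYP17A1 was listed with vehicle alone. Within 10 kb CYP17A1 had no peak with DHT, and within 100 kb its tallest peaks, 65 tags with DHT and 44 with vehicle, stayed within the limit. The 300 bases at the centre of the WBP1L peak, chr10:104542484-104542783 (GRCh37, plus strand), are shown because it was the only tallest peak to pass the limit. Capitals would mark AGAACA, the single arm of the androgen receptor's site, or TGTTTAC, the FOXA site, on either strand, and neither occurs in this stretch. The 1000 bases around the same centre hold AGAACA at 1 place and lack TGTTTAC.
CYP17A1 centre: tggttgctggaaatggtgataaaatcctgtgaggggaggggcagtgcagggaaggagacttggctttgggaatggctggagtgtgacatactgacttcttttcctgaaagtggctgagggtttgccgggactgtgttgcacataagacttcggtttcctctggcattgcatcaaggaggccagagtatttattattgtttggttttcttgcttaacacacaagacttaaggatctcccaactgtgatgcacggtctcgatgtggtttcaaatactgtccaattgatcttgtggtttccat
HSD3B1 (chr1:120049821-120057677, plus strand) had a single pair, 38 tags with DHT and 36 with vehicle, 35.4 kb downstream of its start in a stretch without an annotated protein-coding gene. Neither the gene nor its promoter carried a peak in either condition.

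The enzymes that form testosterone showed little acetylation of their own. HSD17B3 (chr9:98997588-99064458, minus strand), the testicular enzyme, had 1 H3K27Ac pair of 12 tags with DHT and 11 with vehicle, the lowest tallest peak of the 10, in SLC35D2 42.1 kb upstream. AKR1C3 (chr10:5077546-5149878, plus strand), the reductase named above for peripheral tissue, had 1 pair of 40 tags in both conditions, a ratio of 1 (0.629 to 1.59). It lay at chr10:5112990-5115059, inside the annotated gene but 22.6 kb upstream of the canonical start. Its centre, chr10:5113874-5114173, is shown as the only acetylated stretch of AKR1C3, and it holds neither AGAACA nor TGTTTAC.
AKR1C3 centre: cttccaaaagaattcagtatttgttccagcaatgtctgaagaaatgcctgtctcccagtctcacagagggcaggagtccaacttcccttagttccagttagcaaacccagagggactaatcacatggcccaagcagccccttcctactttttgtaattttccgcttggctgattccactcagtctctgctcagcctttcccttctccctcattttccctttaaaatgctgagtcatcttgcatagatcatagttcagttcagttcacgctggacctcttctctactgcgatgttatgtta
The promoter of AKR1C3 is unique sequence, as 100% of its stretches of 32 bases occur once in the genome. For HSD17B3 and CYP17A1 the share was 78.0% and 82.6%, and for HSD17B6 68.0%, so that part of those promoters would take no uniquely placed read of that length. The length of the reads is not given in the sources used here, and how far this bears on the missing promoter peaks was not tested.

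The SRD5A enzymes, which form DHT, differed in where they were acetylated. SRD5A1 (chr5:6633540-6674499, plus strand), the form found in many tissues and often in prostate tumours, had a promoter peak of 100 tags with DHT and 78 with vehicle, a ratio of 1.28 (0.944 to 1.75), which also covered the promoter of NSUN2. This was the tallest peak over any of the 10 enzymes' own promoters, and its interval includes 1. The TENT4A promoter, 80.0 kb downstream of the SRD5A1 start, had 85 tags with DHT and 81 with vehicle. Inside the gene, with exons and introns numbered along the canonical transcript, a peak at exon 5 was lower with DHT, 14 tags with DHT and 22 with vehicle, a ratio of 0.636 whose counting interval (0.301 to 1.3) includes 1, and one in intron 1 had 23 tags in both. The promoter peak held the only full androgen element in any H3K27Ac peak around the enzymes. It is shown with 20 bases on each side, chr5:6632802-6632854, and overlaps a coding exon of NSUN2, with the element (GNACA, 3 bases, TGTNC) in capitals.
SRD5A1 promoter element: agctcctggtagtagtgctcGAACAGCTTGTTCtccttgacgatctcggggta

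SRD5A2 (chr2:31747550-31806007, minus strand), the main form of the normal prostate, had 3 low peaks inside the gene with DHT, of 10, 12 and 15 tags, and 4 with vehicle, of 9, 13, 13 and 22 tags. Neither condition had one at its promoter, where 100% of stretches occur once in the genome. Both conditions thus placed it among the weakly acetylated genes, at percentile 12.4 with DHT and 19.3 with vehicle among all protein-coding genes by tallest peak, where genes without a peak count as 0. The pair at chr2:31786320-31787279 in intron 2 had 12 tags with DHT and 22 with vehicle, a ratio of 0.545 (0.246 to 1.15), the lowest of the 39. Another pair in intron 2 had 15 tags with DHT and 13 with vehicle, a ratio of 1.15 (0.512 to 2.63). Both intervals include 1, so counting error alone leaves the direction of either pair unsettled. The tallest peaks, 15 tags with DHT and 22 with vehicle, lay in different places, and their ratio of 0.682 passed the limit downward only after division by the median ratio of all pairs, under a lower fold limit or with summed heights.

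SRD5A3 (chr4:56212380-56239267, plus strand), which reduces polyprenol to dolichol for protein glycosylation and can act on testosterone, had a promoter peak of 51 tags in both conditions. The taller peak at the TMEM165 promoter had 56 tags with DHT and 61 with vehicle. Both ratios were close to 1. A flanking pair 33.4 kb downstream had 26 tags with DHT and 18 with vehicle, a ratio of 1.44 (0.762 to 2.80). Of the 8 vehicle peaks 4 had no DHT counterpart, of 15, 11, 11 and 9 tags, so that summed heights were 143 tags with DHT and 188 with vehicle.

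HSD17B6 (chr12:57145945-57181574, plus strand) held the pair with the largest ratio. At chr12:57151320-57154829, 4.03 kb upstream of the canonical start and inside the annotated gene, height was 90 tags with DHT (72.4 to 111) and 37 with vehicle (26.1 to 51.0), a ratio of 2.43 (1.64 to 3.67). A second peak, in intron 2, had 57 tags with DHT and 30 with vehicle, a ratio of 1.90 (1.2 to 3.06). Between them, a peak in intron 1 had 39 tags in both conditions, so the difference was not spread evenly over the gene. The peak over an upstream annotated start, shared with PRIM1, had 61 tags with DHT against 50 with vehicle, and the NACA promoter peak, the tallest around any of the 10 enzymes, had 119 tags with DHT and 105 with vehicle. With peaks within 10 kb alone, which leaves out NACA, the tallest HSD17B6 peaks had 90 tags with DHT, at the upstream peak, against 50 with vehicle, over the start shared with PRIM1, so that HSD17B6 passed the limit on peaks at different places. The centre of the upstream peak, chr12:57152924-57153223, is shown because it carries the largest ratio, and it holds neither AGAACA nor TGTTTAC.
HSD17B6 upstream peak centre: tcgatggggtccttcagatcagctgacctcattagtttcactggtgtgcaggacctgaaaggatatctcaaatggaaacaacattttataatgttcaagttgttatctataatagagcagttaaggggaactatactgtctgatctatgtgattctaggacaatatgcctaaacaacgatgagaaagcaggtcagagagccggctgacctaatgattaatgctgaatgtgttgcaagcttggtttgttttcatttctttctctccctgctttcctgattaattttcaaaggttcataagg
The 1000 bases around this centre hold AGAACA at 2 places. Of the 32-base stretches, 86.2% in the upstream peak and 75.7% in the intron 2 peak occur once in the genome.

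HSD17B4 (chr5:118788160-118972894, plus strand) is a peroxisomal enzyme that oxidises active sex steroids and also takes part in fatty acid breakdown. It had 10 H3K27Ac peaks with DHT and 7 with vehicle, and the highest summed height of the 10 enzymes with DHT, 442 tags against 294 with vehicle. The differences lay in the later introns. In intron 23, chr5:118872300-118875059, height was 78 tags with DHT (61.7 to 97.3) and 33 with vehicle (22.7 to 46.3), a ratio of 2.36 (1.55 to 3.67), and in intron 22 it was 23 tags with DHT and 10 with vehicle, a ratio of 2.30 (1.05 to 5.41). The next peak toward the start, in intron 20, had 80 tags with DHT against 58 with vehicle, and the tallest, in intron 13, had 98 with DHT and 80 with vehicle, both within the limit. The promoter peak had 59 tags with DHT and 46 with vehicle, a ratio of 1.28 (0.858 to 1.93). Farther along, beyond the last exon of the canonical transcript, a peak had 56 tags with DHT and 57 with vehicle. Found with DHT alone were peaks of 10 and 15 tags upstream of the gene and 1 of 10 tags at exon 24. The centres of the intron 22 and intron 23 peaks, chr5:118869869-118870168 and chr5:118873529-118873828, are shown as the neighbouring stretches with the larger ratios, with AGAACA in capitals on either strand (TGTTCT on the strand shown).
HSD17B4 intron 22 peak centre: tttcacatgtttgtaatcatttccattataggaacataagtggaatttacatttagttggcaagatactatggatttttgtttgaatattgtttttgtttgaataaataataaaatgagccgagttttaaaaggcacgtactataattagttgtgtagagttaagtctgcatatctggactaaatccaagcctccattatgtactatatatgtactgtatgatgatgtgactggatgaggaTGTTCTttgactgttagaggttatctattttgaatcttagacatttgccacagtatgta
HSD17B4 intron 23 peak centre: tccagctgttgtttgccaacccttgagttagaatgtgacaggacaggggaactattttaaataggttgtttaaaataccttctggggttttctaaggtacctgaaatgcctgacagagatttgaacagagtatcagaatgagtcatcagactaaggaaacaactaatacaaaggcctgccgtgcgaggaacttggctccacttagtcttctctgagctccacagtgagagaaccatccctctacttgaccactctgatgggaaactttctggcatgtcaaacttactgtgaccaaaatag

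SULT2B1 (chr19:49055429-49102682, plus strand), which adds sulfate to cholesterol, pregnenolone and DHEA, had the most peaks, 13 with DHT and 12 with vehicle. The pair in intron 2, chr19:49084620-49088069, had 50 tags with DHT and 27 with vehicle, a ratio of 1.85 (1.14 to 3.08). A pair in intron 1 had 24 tags with DHT and 13 with vehicle, also a ratio of 1.85, but its interval (0.903 to 3.95) includes 1. These peaks lie partly in repeated sequence, since 60.6% of the 32-base stretches in the intron 2 peak and 60.5% in the intron 1 peak occur once in the genome. In intron 1, peaks of 36 tags with DHT and 29 with vehicle, and of 23 tags with DHT alone, stood nearby, and intron 2 had a peak of 11 tags with DHT alone. The second annotated start had a faint peak of 11 tags with DHT and 9 with vehicle. The neighbours were level, with 53 tags with DHT and 48 with vehicle at the DBP promoter, 34 in both over RPL18 and SPHK2, 21 with DHT and 18 with vehicle at a further SPHK2 start, and 25 with DHT and 21 with vehicle at a start of LMTK3. With peaks within 10 kb alone, the tallest SULT2B1 peaks had 50 tags with DHT, in intron 2, against 29 with vehicle, in intron 1, so that SULT2B1 passed the limit on peaks at different places.

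The letters of the androgen receptor's site were about as common in the peaks around the enzymes as in all peaks. In the 1000 bases around peak centres, the full element occurred in 0 of 44 DHT peaks around the enzymes, where 2.53% of all DHT peaks hold it (1.58% of all vehicle peaks). AGAACA occurred in 27 of 44 (61.4%, against 58.0% of all DHT peaks) and TGTTTAC in 11 of 44 (25%, against 26.4%). Of the 7 pairs higher with DHT, 0 held the full element in this window, 6 held AGAACA and 3 held the FOXA letters. The shares among all higher pairs of the genome were not counted. The single arm can be part of the full element, so counts of both can share a site. A match is a description of the letters, and androgen receptor binding was not measured here.

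TCF7L2 peaks lay within 50 kb of 5 of the 10 enzymes, where 66.7% of all protein-coding genes have 1 or more. SULT2B1 had 9, HSD17B3 had 4, SRD5A3 had 2, and HSD17B6 and CYP17A1 had 1 each. SRD5A1, SRD5A2, HSD3B1, HSD17B4 and AKR1C3 had none, although SRD5A1 and HSD17B4 were among the most acetylated of the 10. Of the 17 peaks, 10 (58.8%) overlapped an H3K27Ac peak of either condition, against 34.5% of all TCF7L2 peaks. Among the 15000 tallest TCF7L2 peaks of the list it was 4 of 11 (36.4%), against 33.1% of those 15000. The tallest of the 17 did not. At chr9:99101760-99102539, inside SLC35D2 and 37.7 kb upstream of the HSD17B3 start, TCF7L2 reached 215 tags (95% Poisson interval 187 to 246), above 99.6% of the list, while the nearest H3K27Ac peak was 3601 bp away with DHT and 3661 bp away with vehicle. Thus HSD17B3, with the lowest H3K27Ac of the 10 enzymes, had the tallest TCF7L2 peak, in serum that was not stripped, unlike the serum of the H3K27Ac libraries. Its other TCF7L2 peaks had 56 tags in intron 9, 26 tags in SLC35D2 outside H3K27Ac, and 54 tags over the faint H3K27Ac pair of 12 tags with DHT and 11 with vehicle.

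**Figure D4:**
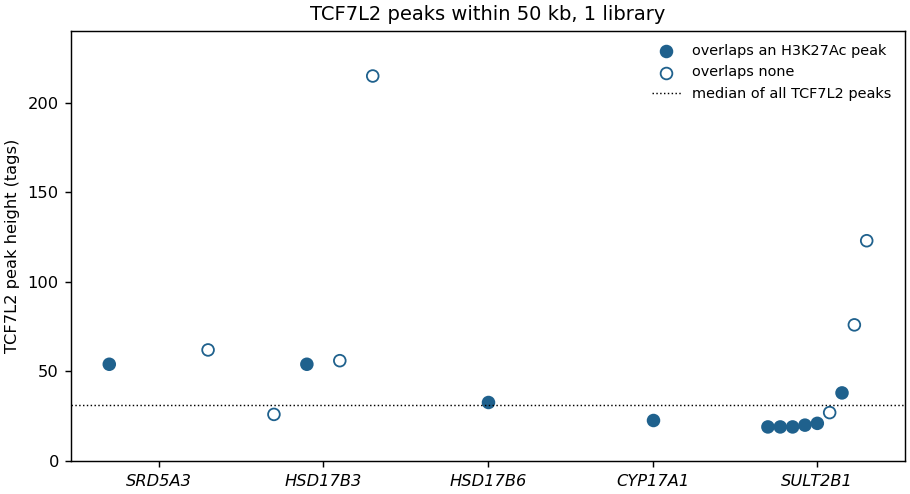
Height in tags of the 17 TCF7L2 peaks within 50 kb of the 5 enzymes that had any, from 1 library; filled points overlap an H3K27Ac peak, open points overlap none, the position of points within a gene has no meaning, and the dotted line is the median of all TCF7L2 peaks, 31 tags. The tallest peaks, 215 tags at HSD17B3 and 123 tags at SULT2B1, overlap no H3K27Ac peak.

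At SULT2B1 the TCF7L2 peaks in intron 1 fell in 2 groups. Those nearest the start, of 27, 123 and 76 tags, were outside H3K27Ac, while the next, of 38 and 20 tags, lay over H3K27Ac peaks of 36 and 11 tags with DHT, against 29 and 9 with vehicle. The remaining 4, of 19 to 21 tags, were low and lay over H3K27Ac peaks of the neighbours SPHK2, RPL18 and DBP. SRD5A3 had 54 tags over exon 1, within its promoter peak, and 62 tags 42.3 kb upstream, outside H3K27Ac. The peak near HSD17B6 (33 tags) lay over the NACA promoter and the one near CYP17A1 (23 tags) over the BORCS7 promoter, so neither was at the enzyme itself.

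The letters bound by TCF7L2 were searched as CTTTGAT and, more loosely, as CTTTG followed by 2 bases that are each A or T, which includes CTTTGAT. In the 200 bases around the centre, CTTTGAT occurred in 2 of the 17 peaks (11.8%, against 13.2% of all TCF7L2 peaks) and the looser form in 5 of 17 (29.4%, against 34.9%). Both shares were close to those of the whole list. To set tall and low peaks side by side, 4 centres are shown on the plus strand of GRCh37, with the looser form in capitals on either strand. They are the tallest peak of all 17 at HSD17B3 (215 tags, chr9:99102049-99102248), the tallest at SULT2B1 (123 tags, chr19:49061584-49061783), the faint one at the second start of SULT2B1 (20 tags, chr19:49077799-49077998), and the one over the coding part of exon 1 of SRD5A3 (54 tags, chr4:56212549-56212748).
HSD17B3, 215 tags: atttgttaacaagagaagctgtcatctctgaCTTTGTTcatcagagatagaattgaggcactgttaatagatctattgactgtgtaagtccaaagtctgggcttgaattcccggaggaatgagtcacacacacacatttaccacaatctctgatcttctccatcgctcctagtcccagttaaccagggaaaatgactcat
SULT2B1, 123 tags: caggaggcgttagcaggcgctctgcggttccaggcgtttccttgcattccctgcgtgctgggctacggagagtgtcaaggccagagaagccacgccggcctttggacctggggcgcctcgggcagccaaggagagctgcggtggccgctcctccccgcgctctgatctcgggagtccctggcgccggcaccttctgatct
SULT2B1, 20 tags: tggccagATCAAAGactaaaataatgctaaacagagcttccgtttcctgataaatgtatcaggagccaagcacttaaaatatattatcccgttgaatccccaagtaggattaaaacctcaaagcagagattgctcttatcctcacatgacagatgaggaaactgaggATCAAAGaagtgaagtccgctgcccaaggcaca
SRD5A3, 54 tags: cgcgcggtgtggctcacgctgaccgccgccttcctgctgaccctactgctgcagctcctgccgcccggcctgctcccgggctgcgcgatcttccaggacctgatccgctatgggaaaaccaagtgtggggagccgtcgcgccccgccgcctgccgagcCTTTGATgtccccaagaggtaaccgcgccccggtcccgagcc
The 123-tag centre has no match and the 20-tag centre has CTTTGAT at 2 places, both on the other strand. The 215-tag centre has 1 match, in the looser form, and the SRD5A3 centre has CTTTGAT once. Over its whole width, the 215-tag peak holds the looser form at 3 places, 1 of them CTTTGAT. The whole 123-tag peak has no match, and the whole 20-tag peak has CTTTGAT at 2 places.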

How the data were processed

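LNCaP ChIP-seq peak lists, 1 library per condition, were used as deposited, with hg19 coordinates. The deposited signal is a peak height in whole tags, which the authors obtained with Sole-search, library by library, with a stricter false discovery rate for H3K27Ac. The paper names Bowtie 2 for H3K27Ac and ELAND for TCF7L2, whereas the submitters' processing notes name CASAVA 1.8.2, Bowtie2 and BWA, and this was not resolved. Heights may depend on depth, which is unknown, and were not compared between antibodies. The input library was not used here.

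Gene annotation was that of GENCODE 44 on GRCh37, which also gave the sequences. Peaks were paired when each shared the most bases with the other (minimum 1 bp). Intervals are exact 95% Poisson intervals, or conditional ones for ratios. They cover counting error only and leave out the choice of the highest point. Overlaps, pairs and the count of CTTTGAT were tested on simulated data, and the counts of the other motifs were not. The enzymes, the list of 39 other steroid genes and the markers were chosen with earlier results of these data known. Named genes were the 10 enzymes, genes whose promoters their peaks cover, the 3 highest and 3 lowest ratios of the steroid list, 3 androgen-induced and 2 housekeeping genes. A further androgen-induced gene is not reported here, and only some peak sequences are shown. WBP1L, SLC35D2 and the 5 steroid-list genes without a peak in both conditions were added after their values were seen. Alternatives covered the window, sums, scaling, fold limits, overlap, promoter width and top peaks (25000 for H3K27Ac, 15000 for TCF7L2). Tools were samtools 1.23.1, bedtools 2.31.1, scipy 1.17.1, pandas 2.3.3, numpy 2.4.6 and matplotlib 3.10.9 under Python 3.11.15.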

Additional observations from a re-analysis of the deposited data

How the results depend on the processing

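Of 50 alternative counts, 31 stayed within 1.5 times the main count and 19 did not. CYP17A1, the 1 enzyme past the limit in the main setting, kept its sign wherever it had a peak in both conditions. Among enzymes within the limit signs did change, as for HSD17B3 with 100 kb on each side (37 tags with DHT, 47 with vehicle). The share of all genes passing the limit was counted in the main setting alone, so the enzyme counts below have no genome value beside them. With 10 kb on each side, 7 enzymes had a peak in both conditions and 2 of them (HSD17B6 and SULT2B1) had a tallest peak at least 1.5-fold higher with DHT. Peaks found in 1 condition alone were then 3 of 28 with DHT (10.7%, against 17.1% of all DHT peaks). With vehicle they were 4 of 29 (13.8%, against 11.8% of all vehicle peaks). In that window there were 7 TCF7L2 peaks at 3 enzymes, 3 of them in H3K27Ac. With 100 kb, 0 enzymes were higher, the wider window taking in taller peaks around CYP17A1 (65 tags with DHT, 44 with vehicle). In that window 9 of 71 peaks (12.7%, against 17.1% of all DHT peaks) were found with DHT alone. With a limit of 2-fold, 0 enzymes were higher. At that limit 3 pairs (7.69%, against 6.51% of all pairs) were higher and 0 pairs lower, against 0.961% of all pairs. With the lower of the alternative limits, 12 pairs (30.8%, against 27.9% of all pairs) were higher and 3 (7.69%, against 17.1%) lower. With that limit 1 enzyme, SRD5A2, was lower. SRD5A2 was also the 1 lower enzyme when heights were summed and when they were divided by the median ratio of all pairs, and when summed the 1 higher enzyme was HSD17B4 in place of CYP17A1. Of the top 25000 H3K27Ac peaks of each condition, 23 with DHT and 24 with vehicle lay around the enzymes. Of these, 0 with DHT and 0 with vehicle lacked a counterpart among all peaks of the other condition. The share over all top 25000 peaks was not counted. The top 15000 TCF7L2 peaks held 11 near the enzymes, 4 of them in H3K27Ac. No paired analysis was possible because each condition had 1 library, and no replicate could be left out. Depth could not be read from the lists, so a low peak missing from 1 list was not detected there, which does not show its absence.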

Other observations

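Among 39 other genes of androgen and steroid metabolism, 34 had an H3K27Ac peak within 50 kb in both conditions. Of these 34 genes, 3 (8.82%) had a tallest peak at least 1.5-fold higher with DHT and 1 was lower, with a median ratio of 1.10, close to the 8.68% and 1.09 over all genes. The higher genes were CYP11A1, which starts steroid synthesis by cleaving the side chain of cholesterol (65 tags with DHT, 22 with vehicle, ratio 2.95 with a counting interval of 1.8 to 5.03), SLCO1B3, an organic anion carrier (27 with DHT, 10 with vehicle, 2.70, 1.27 to 6.25), and AKR1D1, a steroid reductase of the liver (77 with DHT, 50 with vehicle, 1.54, 1.06 to 2.24). The lower gene was PAPSS2, which makes the sulfate donor used by sulfotransferases such as SULT2B1 (32 tags with DHT, 49 with vehicle, 0.653, 0.405 to 1.04). DHRS9 (34 with DHT, 48 with vehicle) and CYP19A1, the aromatase that turns androgens into oestrogens (61 with DHT, 83 with vehicle), had the next lowest ratios and stayed within the limit. For these other genes, it was not checked whether the tallest peak was the gene's own or lay at the same place in both conditions.

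A promoter peak was present at 21 of the 39 genes with DHT (53.8%, against 55.5% of all genes) and 20 with vehicle (51.3%, against 54.3%). A TCF7L2 peak lay within 50 kb of 24 (61.5%, against 66.7%). SULT2A1, CYP21A2 and SLCO2B1 had no H3K27Ac peak in either condition. AKR1C1 and AKR1C2, close relatives of AKR1C3 that inactivate DHT, had a peak with vehicle alone, of 9 tags, the lowest height listed. Reads from near-identical members of this family can be hard to place, and how this bears on their peaks was not tested.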
